A study of Mus musculus with 8 samples.

Results

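The minus strand of mouse chromosome 7 upstream of Snrpn was followed in 10-kb bins over 540.8 kb, from base 67160012 on mm9 outward to 67.7 Mb. The bins were chosen by position: all non-control probes drawn on the minus strand whose lower coordinate lay in this interval were taken, which gave 55 of the 356 bins covered on both strands and 8032 of the 53834 distinct probes. The first bin lies nearest to Snrpn, and the distance from it grows with the coordinate. The deposited files name no genes, so the place of the stretch relative to Snrpn was taken from the description of the stretch and was not checked against an mm9 annotation, nor could the tissue be checked by markers.

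All RNA came from newborn (postnatal day 0) C57BL/6 cerebral cortex. The maternal deletion sample (del s-u/+, n = 1) lacked the Snrpn-Ube3a interval on the chromosome inherited from the mother, and the paternal deletion sample (del +/s-u, n = 1) lacked it on the one from the father. Both double deletion samples (n = 2) joined the maternal Snrpn-Ube3a deletion with a paternal deletion of the Snrpn promoter, and both therefore share the maternal allele of the del s-u/+ sample. One is titled with promoter deletion 0.9 and the other with 4.8, but their genotype labels give the numbers the other way round, so they are called sample 1 (titled 0.9) and sample 2 (titled 4.8) and neither number is assigned to a response. The polyA RNA samples (n = 2) were purified from the RNA of the wild types, and the total RNA wild types (WT 1 and WT 2, n = 2) were littermates of the single-deletion mutants. With 1 array for each mutant, the tests below assume that a mutant varies as the wild-type pair does.

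Snrpn is an imprinted gene of the Prader-Willi and Angelman region and is transcribed from the paternal chromosome. Transcription that starts at or upstream of the Snrpn promoter can run on as a long non-coding RNA (Snhg14), whose far end lies antisense to Ube3a, and the upstream part holds alternative first exons that are used in brain. A tiling array with probes on both strands reads such transcription directly, including introns and stretches between genes.

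RefSeq lists 4 starts of Snrpn on the minus strand of chromosome 7 in GRCm38.p6, and the 250 bases before each are shown because they are the annotated places where RNA of this strand can begin. Their positions on mm9 were not derived, so none is assigned to a bin. Capitals mark a 19-base run held by all 3 upstream starts. Snrpn start 1 (chr7:60005200-60005449) is also the start of Snurf, the gene for a small protein made from the same transcript.
Snrpn start 1: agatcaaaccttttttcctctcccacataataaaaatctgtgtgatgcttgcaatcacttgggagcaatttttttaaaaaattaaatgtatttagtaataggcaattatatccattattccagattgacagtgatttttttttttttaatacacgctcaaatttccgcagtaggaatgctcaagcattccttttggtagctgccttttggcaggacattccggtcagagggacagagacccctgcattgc
Snrpn start 2 (chr7:60047979-60048228) lies 42.8 kb farther upstream.
Snrpn start 2: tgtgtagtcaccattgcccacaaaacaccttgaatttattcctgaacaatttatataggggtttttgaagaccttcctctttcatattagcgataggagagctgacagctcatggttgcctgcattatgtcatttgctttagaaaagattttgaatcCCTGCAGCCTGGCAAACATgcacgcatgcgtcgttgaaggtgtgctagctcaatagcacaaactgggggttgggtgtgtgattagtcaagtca
Snrpn start 3 (chr7:60140226-60140475) lies 135.0 kb upstream of start 1.
Snrpn start 3: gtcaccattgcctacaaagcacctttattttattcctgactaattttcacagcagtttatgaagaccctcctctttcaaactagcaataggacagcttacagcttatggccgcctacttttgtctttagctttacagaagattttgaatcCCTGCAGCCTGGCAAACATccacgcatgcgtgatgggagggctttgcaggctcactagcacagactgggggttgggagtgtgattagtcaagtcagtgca
Snrpn start 4 (chr7:60450178-60450427) lies 445.0 kb upstream of start 1 and is also annotated as the start of Snhg14.
Snrpn start 4: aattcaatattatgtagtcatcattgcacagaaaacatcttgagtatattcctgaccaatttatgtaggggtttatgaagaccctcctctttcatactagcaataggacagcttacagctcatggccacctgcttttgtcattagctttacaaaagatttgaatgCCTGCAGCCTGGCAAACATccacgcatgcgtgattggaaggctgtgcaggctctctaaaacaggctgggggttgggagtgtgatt

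The 3 upstream sequences resemble each other along most of their length. Local alignment gave 205 identical bases in 246 columns (83.3%) between starts 3 and 2, 203 in 240 (84.6%) between starts 4 and 2, and 204 in 235 (86.8%) between starts 4 and 3. Against start 1 the best local alignments covered 8, 10 and 21 columns, so the start shared with Snurf does not resemble the other 3. The shared run CCTGCAGCCTGGCAAACAT, searched on both strands, was found in 4 of 32851 windows of 250 bases before RefSeq starts (0.0122%). They are 3 distinct positions because Snhg14 and Snrpn share one. These positions are the 3 upstream starts from which the run was taken, so the hits were fixed in advance. No other window held the run. G and C made up 36.8% of the bases before start 1 and 43.2%, 46.0% and 43.2% of those before starts 2, 3 and 4. A match of this kind describes the sequence and is not a measured start in these samples.

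The strength of signal was read from the red channel of a custom Agilent array, as the median pixel intensity of a probe. A level below is a log2 value after background correction, set against the 75th percentile of probes lying outside the imprinted locus on the same array, averaged over the probes of a bin. A value of 0 is thus as bright as that percentile. On the 6 total RNA arrays 7352 of the 8032 probes (91.5%) were well above background throughout, and 125 (1.56%) were saturated on at least 1. All 8 arrays lay on 1 slide. The median member intensity was 164 in the maternal deletion, 151 in the paternal deletion, 104.5 and 203.5 in double deletion samples 1 and 2, and 178.25 and 154 in WT 1 and WT 2, while the polyA arrays had 44 and 42 against a local background of 34. Nothing in the labels says whether more than 1 animal stands behind a sample, and in RNA of whole cortex fewer cells that transcribe the stretch and less RNA per cell cannot be told apart.

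In wild-type cortex the minus strand was detected along the whole stretch. The mean of a bin over the wild types ran between -0.14 and 4.55 with a median of 0.99. The brightest bins were those starting at 67560001, 67350001 and 67300001, and the dimmest were those starting at 67290001, 67270001 and 67330001. The bin at 67560001 had 4.36 in the maternal deletion, 4.38 in the paternal deletion, 3.98 and 4.43 in double deletion samples 1 and 2, and 4.62 and 4.47 in WT 1 and WT 2. The bin at 67290001 had -0.22 in the maternal deletion, -0.15 in the paternal deletion, -0.36 and -0.20 in the double deletion samples, and -0.14 in both wild types. Bright bins stood singly or in short runs with dimmer runs between them. The 2 wild types followed each other bin by bin (Pearson r = 0.999 across 55 bins, which share probes and array design), with a median SD of 0.07 between them.

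**Figure D1:**
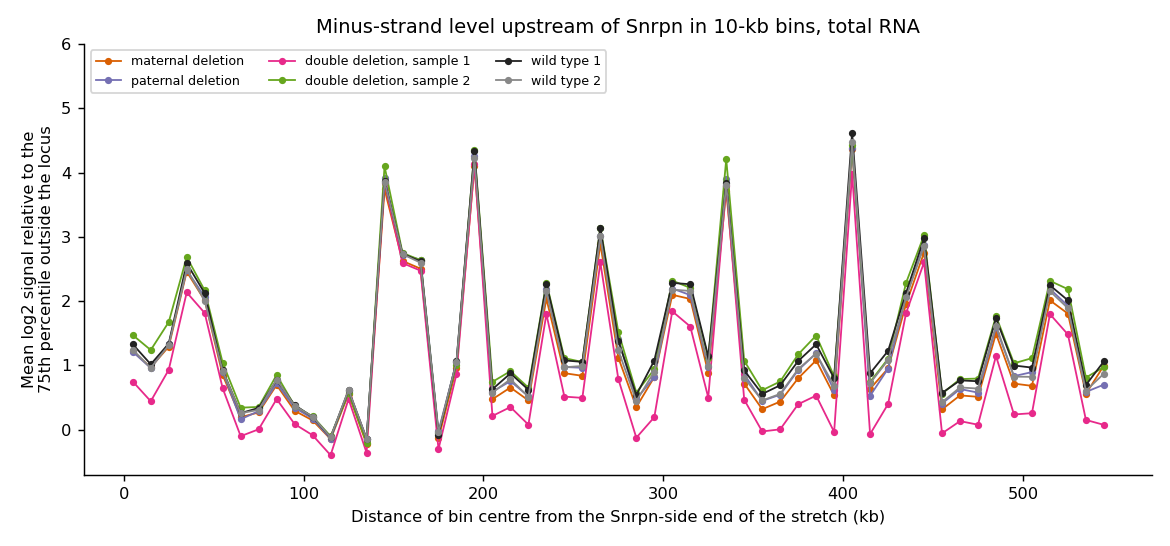
Level of the minus strand in 55 bins of 10 kb (y axis, mean log2 signal over the array's own 75th percentile outside the locus) against distance from the end nearest Snrpn (x axis, kb), with 1 line per total RNA array. Double deletion sample 1 runs under the other 5 arrays in most bins and meets them at several of the tallest peaks.

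Much of the height of the peaks came from custom probes. The mean level of the 3116 catalogue probes was -0.04 in the maternal deletion, 0.01 in the paternal deletion, -0.49 and 0.16 in double deletion samples 1 and 2, and 0.08 ± 0.06 in wild types (SD, n = 2). The 4916 custom probes averaged 1.85, 1.95, 1.62 and 2.08 in the same 4 mutants, and 1.99 ± 0.06 in wild types. Of the 1345 probes with a mean level above 4, 1308 were custom, and all 125 saturated probes were among these. Across the 55 bins the wild-type level of the minus strand correlated with that of the plus strand opposite (Pearson r = 0.81, Spearman rho = 0.79), values that come from the same arrays and from probes drawn as reverse complements of each other.

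The double deletions differ from wild type at both alleles, the maternal Snrpn-Ube3a deletion and the paternal promoter deletion, so these comparisons do not isolate the promoter deletion. The wild types were littermates of the single-deletion mutants, so litter may differ along with genotype here, and its part was not tested. The 2 double deletion samples gave different values. The mean over all member probes was 0.80 in double deletion sample 1 and 1.34 in sample 2, against 1.29 in WT 1 and 1.21 in WT 2. Sample 1 therefore lay below both wild types by more than they differed, and sample 2 lay above the higher one by less than that difference. In sample 1 the mean was 0.45 lower than that of wild type on the log2 scale, and in sample 2 it was 0.09 higher. The ratio of 73.2% that the fall in sample 1 gives was taken after an offset of 50 and is not the share of signal left. The mean change over the bins of sample 1 was -0.54 without background correction and -0.96 with plain background subtraction. It was -0.13 after quantile normalization and 0.37 when scaled on all probes.

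Of the 55 bins, 49 fell and 0 rose in double deletion sample 1 against wild type by limma at an adjusted p below 0.05, where 38.2% of all 356 bins fell and 15.7% rose. Scaled on the 75th percentile of all probes, of which 50496 of 53834 lie in the locus, 48 bins were instead higher. That scale moved the median of all bins by 0.81. The mean change relative to the flank on the far side of the locus stayed at -0.39. After quantile normalization 29 bins were lower and 6 higher. On the scale used here the change was negative in all 55 bins, between -0.89 and -0.02, with a median of -0.48 beside -0.10 over all bins. Sample 1 was the lowest of the 6 total RNA arrays in 52 of the 55 bins, as it was in 41.9% of all bins and in 31 of 49 minus-strand bins of the flank on the far side of the locus. The 2 double deletion samples differed directly in 46 of 55 bins, each lower in sample 1 (33.1% of all bins were lower), with a median difference of -0.56. On the all-probe scale 23 were higher and 4 lower.

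The bins nearest Snrpn show the split. The first bin, whose probes cover 67160012 to 67170046, had 0.75 in double deletion sample 1, 1.47 in sample 2, and 1.33 and 1.25 in WT 1 and WT 2. Sample 1 was lower by 0.54 (SE 0.05, adjusted p = 0.0117), and for sample 2 the change of 0.18 did not pass the test (adjusted p = 0.116). In the second bin, at 67170001, the values were 0.44 and 1.24 in samples 1 and 2, against 1.02 and 0.96 in the wild types, a fall of 0.55 in sample 1 and a rise of 0.25 in sample 2 (adjusted p = 0.00681 and 0.0372). The third, at 67180001, had 0.93 and 1.68 in samples 1 and 2, against 1.34 and 1.32 in the wild types. Neither mutant array overlapped the wild types in these 3 bins, and they lay on opposite sides.

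At the far end the fall in sample 1 was of like size. The last full bin, at 67690001, had 0.15 in sample 1, 0.81 in sample 2, and 0.70 and 0.61 in the wild types (sample 1 lower by 0.50, SE 0.06, adjusted p = 0.0143). Read in windows of 100 kb from the Snrpn side outward, sample 1 was lower by a mean of 0.37, 0.18, 0.52, 0.52 and 0.57, and by 0.58 in the remaining 5 bins. Over the same windows sample 2 changed by 0.13, 0.02, 0.08, 0.14, 0.05 and 0.15. The window from 67260001 to 67360000 thus moved least in both samples.

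The largest falls of sample 1 were in the far part of the stretch. The bin at 67700001, which is cut short and holds 12 probes, had 0.08 in sample 1 and 0.98 in sample 2, against 1.06 and 0.87 in the wild types (change in sample 1 -0.89, SE 0.11, adjusted p = 0.0171). The bin at 67570001, with 182 probes, had -0.07 and 0.74 in samples 1 and 2, against 0.88 and 0.73 in the wild types (change in sample 1 -0.87, SE 0.09, adjusted p = 0.0119). The bin at 67450001 had 0.20 and 0.94, against 1.08 and 0.90 (change in sample 1 -0.79, SE 0.10, adjusted p = 0.0177). In all 3 bins sample 2 lay between the wild types.

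Only 6 bins missed the threshold in sample 1, and each had a wild-type level between 2.07 and 4.28. All 40 bins with a wild-type level at or below 2 fell, with a median change of -0.52, and 9 of the 15 brighter ones did, with a median of -0.31. Among single probes the brightest also changed least. The median change in sample 1 was -0.51 for the 3791 probes with a mean level below 0, -0.74 for those between 0 and 1, -0.37 between 1 and 2, -0.10 between 2 and 4, and 0.01 above 4. Sample 2 had medians of -0.01, 0.16, 0.15, 0.15 and 0.09 over the same classes. With the catalogue probes alone, none of which was saturated, all 55 bins fell in sample 1. Their median change was then -0.61, beside -0.13 over all bins. A larger share of all bins was also called in that setting, so the higher count is not particular to the stretch.

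**Figure D2:**
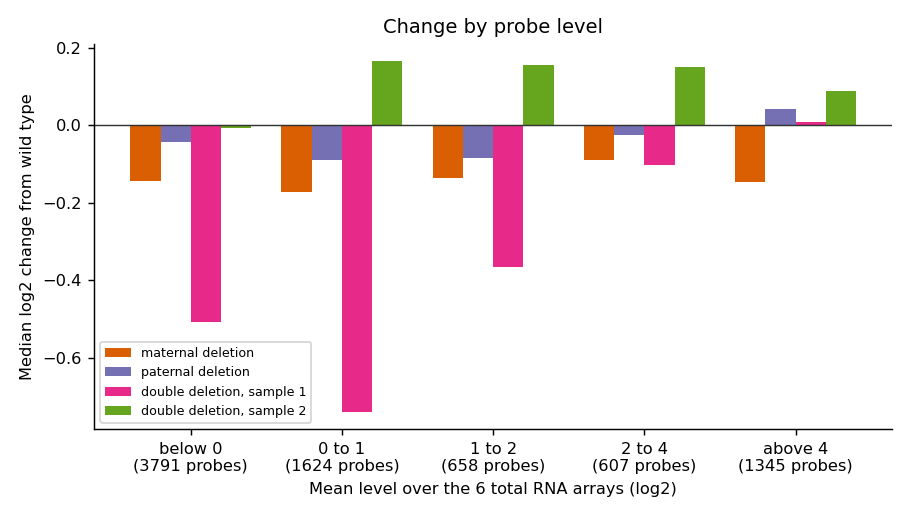
Median log2 change from wild type (y axis) of the member probes, split by their mean level over the 6 total RNA arrays (x axis, log2 classes with the number of probes), with a bar for each mutant array. The bars of double deletion sample 1 reach -0.74 for probes between 0 and 1 and are near 0 for the 1345 probes above 4.

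In double deletion sample 2, 4 of 55 bins rose and 0 fell against wild type, where 21.6% of all bins rose and 19.1% fell. They were the bins at 67490001 (4.21 in sample 2, against 3.84 and 3.81 in WT 1 and WT 2), 67180001, 67170001 and 67300001 (4.10, against 3.87 and 3.86). The largest rise was 0.38 (SE 0.03, adjusted p = 0.0111) at 67490001, and sample 1 had 3.80 there. Sample 2 was the highest of the 6 arrays in 40 of the 55 bins, against 27.5% of all bins and 17 of 49 bins of that flank. The median change over the members was 0.09, beside -0.02 over all bins. On the all-probe scale 41 bins were higher, and scaled on outside probes well above background 2 were higher and 7 lower. Without WT 1, 2 bins were called, and without WT 2, 0, in fits whose spread comes from the polyA pair.

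The maternal and the paternal Snrpn-Ube3a deletions ask whether the parent of origin of that deletion changes this strand. None of the 55 bins passed the test in either, by limma, where 21.3% of all bins were called for the maternal deletion and 32.0% for the paternal one; at an unadjusted p below 0.05 there were 3 for the maternal and 0 for the paternal deletion. The members averaged 1.12 in the maternal deletion and 1.20 in the paternal deletion, against 1.29 and 1.21 in the wild types, so both lay below the lower wild type, the paternal deletion only just. Bin changes ran from -0.21 to 0.03 in the maternal deletion (median -0.15) and from -0.27 to 0.10 in the paternal deletion (median -0.04). These comparisons use the same 2 wild types as those of the double deletions. Set against each other directly, the paternal and the maternal deletion differed in 0 of 55 bins (28.9% of all bins), with 3 at an unadjusted p below 0.05. A call missed here does not show equal levels, as the median SE of a bin was 0.06 against wild type. The counts moved with the scale: on the all-probe scale 55 bins were higher in the paternal deletion, and after quantile normalization 32 were lower in the maternal deletion and 55 higher in the paternal one.

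Against the maternal deletion, whose maternal allele they share, the mean of the double deletion samples was higher in 2 of 55 bins, at 67490001 (0.29, SE 0.03, adjusted p = 0.0282) and 67300001 (0.23, SE 0.03, adjusted p = 0.0303), where 8.15% of all bins were higher. On the plus strand opposite the mean was also higher in these bins, by 0.21 and 0.14, and neither passed the test. The median change over the members was -0.05. That mean averages 2 arrays that differ from each other in 46 bins. Without sample 1 the comparison called 3 bins, all higher, without either wild type 1 bin, lower, and without sample 2 it called 16 bins, all lower, and on the all-probe scale it called 53, all higher.

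**Figure D3:**
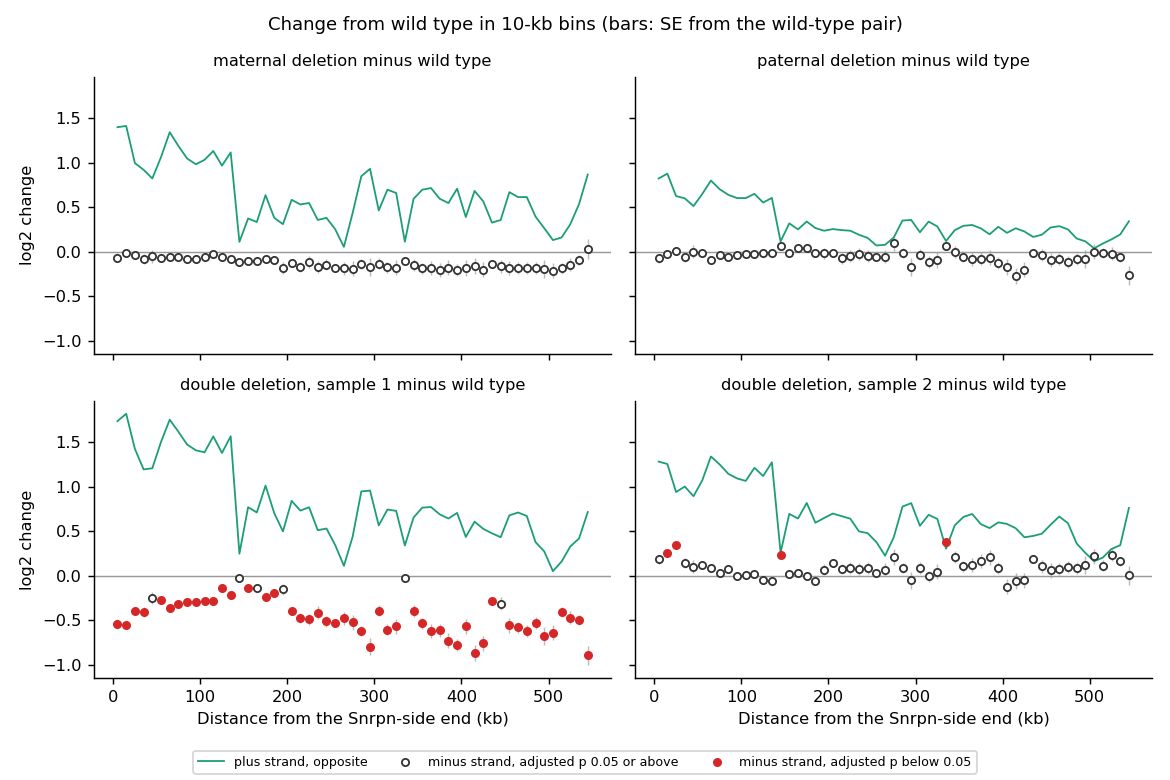
Log2 change from wild type in each 10-kb bin (y axis) against distance from the end nearest Snrpn (x axis, kb) for the 4 mutant arrays. Points are the minus strand with SE bars, red where the adjusted p was below 0.05 and open otherwise, and the green line is the plus strand opposite. In double deletion sample 1 the 49 red points lie below 0 while the green line lies above it.

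Of the 4 bins next to the stretch on the Snrpn side, 3 fell in the paternal deletion, 4 in double deletion sample 1 and 3 in sample 2. Over these 4 minus-strand bins (probes from 67120016 to 67160005), the mean level was 0.02 in the paternal deletion, 0.08 and 1.39 in double deletion samples 1 and 2, and 2.14 in the maternal deletion, against 2.28 and 2.18 in the wild types. The paternal deletion and sample 1 thus had mean levels near each other there. They carry different paternal deletions, of the Snrpn-Ube3a interval and of the Snrpn promoter. Where these bins lie relative to either deletion was not checked, and whether the low levels have the same cause was not tested. In the bin at 67140001 the change was -1.59 in the paternal deletion, -1.91 in sample 1 and -0.69 in sample 2 (adjusted p = 0.00161, 0.00149 and 0.00757). In the next bin, at 67150001, it was -0.12 in the paternal deletion (adjusted p = 0.257), -0.68 in sample 1 (adjusted p = 0.00738) and 0.22 in sample 2 (adjusted p = 0.0879), and the paternal deletion was not tested against sample 1. Beyond it, inside the stretch, 0 bins fell in the paternal deletion and in sample 2, and 49 fell in sample 1.

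The far side of the locus served as a comparison on the same strand. The 49 minus-strand bins of this lower flank (493 kb of probes, ending at 66383554) averaged 0.73 in the maternal deletion, 0.76 in the paternal deletion, 0.71 and 0.77 in double deletion samples 1 and 2, and 0.77 and 0.75 in the wild types. No bin of this flank passed the test in sample 1, and 5 rose in sample 2. The difference of the members' mean from that of the flank, in which the scale of an array cancels, was 0.09 in sample 1 and 0.57 in sample 2, 0.39 in the maternal deletion and 0.43 in the paternal deletion, against 0.52 and 0.45 in the wild types. The difference was smallest in sample 1 among the 6 total RNA arrays.

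The plus strand over the same coordinates averaged 1.22 in the maternal deletion, 0.91 in the paternal deletion, 1.40 and 1.27 in double deletion samples 1 and 2, and 0.56 in both wild types, so all 4 mutants lay above both wild types. It rose in 50, 44, 51 and 53 of 55 bins and fell in none. Of all 356 bins of both strands, these included, 55, 49, 56 and 77 rose. In the first bin the plus strand had 2.02, 1.44, 2.35 and 1.90 in the 4 mutants, against 0.62 in each wild type.

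Taking the plus strand from the minus strand at each position removes the array's scale. This difference fell in 51 of 55 positions in the maternal deletion (38.8% of all 178 positions fell), 37 in the paternal deletion (57.3%), 55 in double deletion sample 1 (69.1%) and 46 in sample 2 (66.9%), and rose in none. The median changes were -0.77, -0.35, -1.28 and -0.58, beside -0.12, -0.37, -1.20 and -0.57 over all 178 positions. In the paternal deletion and both double deletion samples the stretch was thus close to all positions, and in the maternal deletion it fell more. In the maternal and paternal deletions, where no minus-strand bin passed, the plus strand alone had calls. In sample 2 no minus-strand bin fell and 4 rose, while 53 plus-strand bins rose. Between the double deletion samples the difference was lower in sample 1 at 51 of 55 positions (61.2% of all). The largest was at 67170001, by -1.36 (SE 0.07, adjusted p = 0.000551).

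PolyA selection asks how much of this RNA carries a polyA tail. The member mean was 0.97 and 0.91 in the polyA samples, against 1.29 and 1.21 in the total RNA of the same wild types. In polyA RNA 35 of 55 bins were lower (38.5% of all bins) and 7 were higher (40.7%), with a median change of -0.31 beside 0.04 over all bins. On the all-probe scale 53 bins were higher and 1 lower, and scaled on outside probes well above background 22 were higher and 13 lower. The bin at 67560001 had 2.89 and 2.85 in polyA RNA, against 4.62 and 4.47 in total RNA (change -1.68, SE 0.06, adjusted p = 0.000242). The bin at 67330001 had 0.37 and 0.36, against -0.07 and -0.04 (change 0.42, SE 0.02, adjusted p = 0.000487). Neither pair overlapped, and they moved in opposite directions. Probes outside the locus were higher by a mean of 0.59 in polyA RNA on this scale, and those of the lower flank by 0.16. The rise at 67330001 was thus smaller than that outside the locus and does not show enrichment in polyA RNA.

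Brighter bins lost more in polyA RNA. The bins at 67350001 and 67190001 were lower by 1.39 and 1.12, and the dim bins at 67270001 and 67290001 were higher by 0.30 and 0.26. These 2 rises were also below the mean rise of 0.59 outside the locus. Across the 55 bins the wild-type level and the polyA change had Pearson r = -0.78 and Spearman rho = -0.81, with the total RNA arrays in both measures. On the polyA arrays 63.3% and 54.5% of the member probes were well above background, and the 75th percentile outside the locus that sets their scale had an intensity of 47 and 46, against 140.25 and 135 in total RNA. The signs at 67190001, 67270001, 67290001 and 67350001 turned under at least 1 other scale, background correction or probe set, and the part of the low polyA signal in these changes was not tested. The members' mean differed from that of the lower flank by 0.02 and 0.01 in polyA RNA, against 0.52 and 0.45 in total RNA.

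**Figure D4:**
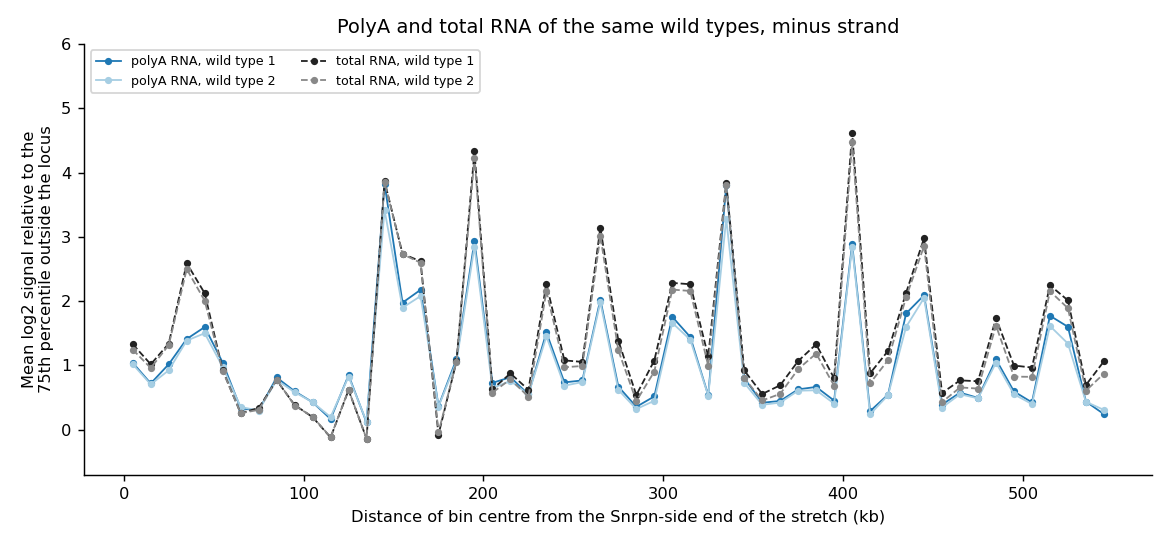
Level of the minus strand in 55 bins (y axis, mean log2 signal over the array's own 75th percentile outside the locus) against distance from the end nearest Snrpn (x axis, kb) in polyA RNA (solid) and total RNA (dashed) of the same 2 wild types. The polyA lines run lower at most peaks and higher at the dimmest bins.

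Between WT 1 and WT 2 the member probes differed with an SD of 0.23, and 4 differed by more than 2. The probe at chr7:67418327-67418374, a catalogue probe, had 3.05 in the maternal deletion, -0.34 in the paternal deletion, -0.68 and 1.34 in double deletion samples 1 and 2, and 2.93 and 2.64 in the wild types. It was thus low in the paternal deletion and in both double deletions, while its 4 nearest probes changed by -0.11 to 0.12 in the paternal deletion. In the mean of the double deletions these neighbours were lower too, by -0.40 to -0.18. In polyA RNA the probe itself had 0.08 and 0.05.

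A second probe with a large fall in the paternal deletion, at chr7:67229796-67229855, had 1.95 there, 4.47 in the maternal deletion, 4.66 and 4.68 in the double deletion samples, and 4.74 and 4.48 in the wild types. It was low on that array alone among the total RNA arrays. The probe at chr7:67252509-67252556 had -0.83 and -0.64 in double deletion samples 1 and 2, 0.65 in the maternal deletion, 0.49 in the paternal deletion, and 2.25 and 0.82 in the wild types. The wild types differed from each other by more than the maternal and paternal deletions did from the lower wild type. Both double deletion samples differed from it by slightly more than the wild types did from each other. The 4 probes with the highest wild-type level, at 67323186, 67566176, 67257956 and 67643836, were saturated on all 6 total RNA arrays, so no fold is given for them. These probes were singled out by their level or fall, so no test is attached.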

How the data were processed

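RNA from mouse cortex was hybridised to a custom 2-strand tiling array, and the labelled input was 15 µg (total RNA) or 750 ng (polyA RNA, purified from 30 µg), per the labels' protocols. The red median intensity of each spot is as deposited by the authors, made with Agilent Feature Extraction 10.7.3.1 per the file headers (the submitters' processing notes name 10.9), on mm9, and the green channel held no sample. The scanner marks (saturated, well above background) are the authors' values too. Here red signals were background-corrected (normexp, offset 50, limma 3.58.1 in R 4.3.3), put on the log2 scale, reduced by the array's 75th percentile of probes outside chr7:65790585-67800765, and averaged over 10-kb bins of at least 3 probes. The log2 values were computed here from the intensities the authors deposited. All probes were kept, since a filter by group favours groups of 1 array. limma (lmFit, eBayes) fitted 5 total RNA groups, with the double deletions apart, and polyA against total RNA in 4 samples, and p-values were Benjamini-Hochberg adjusted over all 356 bins (178 positions for the strand difference). The SE comes from the wild-type pair, or from the polyA pair where a wild type is left out. polyA and total RNA are paired by the labels, which state the same RNA. Named bins were the 3 nearest Snrpn, the last full one, the 3 brightest and 3 dimmest, and up to 3 called bins with the largest change in each direction. Named probes were the 4 brightest and the 2 with the largest fall in the paternal deletion and in the double deletions. The stretch, lists and rules were chosen with earlier results of these data known. The cell type markers could not be applied, since the files name no genes. Sequences are RefSeq's (GRCm38.p6), aligned with Biopython 1.88. Scripts were tested on simulated data. Alternatives covered scale, background correction, probe filters, bin size and summary, samples left out and the replicate block.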

Additional observations from a re-analysis of the deposited data

Results flagged for a closer look

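The 2 double deletion samples carry the same maternal deletion and a promoter deletion each, and their changes from wild type differed from each other: sample 1 was lower than sample 2 in 46 of 55 bins by limma at an adjusted p below 0.05 (33.1% of all bins were lower), with a median difference of -0.56. The test takes its spread from the wild-type pair, since each has 1 array. It was drawn to attention because the difference itself was tested. Which promoter deletion belongs to which sample cannot be told, because title and genotype label give opposite numbers.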

How the results depend on the processing

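The scale bore most on the counts of bins called. With the 75th percentile of all probes, which moved the median of all bins by 1.25 (paternal deletion), 0.81 and 0.12 (double deletion samples 1 and 2) and 1.34 (polyA), the members called were 1 (maternal deletion), 55 (paternal), 48 (sample 1, all higher), 41 (sample 2), 53 (double mean against maternal), 55 (paternal against maternal), 27 (sample 1 against sample 2, of which 23 higher) and 54 (polyA, 53 higher). That percentile is taken over probes of which 50496 of 53834 lie in the locus itself. With outside probes well above background they were 31 (maternal), 3 (paternal), 9 of which 7 lower (sample 2), 21 of which 19 lower (double mean), 21 (paternal against maternal) and 35 of which 22 higher (polyA). With quantile normalization they were 32 (maternal), 55 (paternal), 17 (sample 2), 41 (double mean) and 55 (paternal against maternal), and sample 1 kept 35, of which 29 lower. The mean fall of sample 1 relative to the lower flank, a measure added after seeing the data, lay between -1.03 and -0.36 in 15 settings.

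Other settings changed the smaller counts, which are given here for the stretch alone, without the share over all bins. Plain background subtraction gave 12 (maternal), 3 (paternal), 9 lower (double mean) and 2 (paternal against maternal). The series matrix values, used as deposited, gave 30 (maternal), 15 (paternal), 30 (sample 2), 6 lower (double mean) and 2 (paternal against maternal). The probe filter on every array gave 2 (paternal), 10 (sample 2), 5 (double mean) and 2 (paternal against maternal). Bin medians gave 1, 1, 10, 4 and 2 in the order maternal, paternal, sample 2, double mean and paternal against maternal. Catalogue probes gave 2 (maternal), 1 (paternal) and 5 lower (double mean). All 8 samples in 1 fit gave 2 (sample 2) and 0 (double mean). Pooling the double deletions gave 0 for the double mean and for the strand difference in both single deletions, because the double deletions then set the spread. Bins of 20 kb, of which 28 cover the stretch, gave 26 (sample 1), 1 (sample 2), 0 (double mean), 25 (sample 1 against 2), 24 (polyA), and strand differences of 28, 28, 25 and 27 (maternal, samples 1 and 2, sample 1 against 2).

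Leaving out 1 wild type leaves no replicated total RNA group, so those fits hold all 8 samples and the polyA pair sets the spread. They show how the calls depend on that assumed spread as much as on the sample left out. They gave 0 to 2 called bins for the paternal deletion, 0 to 2 for sample 2 and 39 to 43 for sample 1. For the double mean, leaving out 1 wild type or 1 double deletion gave 1 to 16. With the replicate block, polyA against total RNA called 47 bins, against 42 without it, and no other call could be paired. Of 466 repeats for named bins, 419 kept direction and side of the threshold, 38 lost the threshold and 9 turned: 67450001 in sample 1 (0.018, all-probe scale), and in polyA RNA 67190001 (0.22, all-probe scale), 67290001 (-0.074 quantile, -0.54 subtracted, -0.62 filter on every array), 67270001 (-0.64 subtracted, -0.16 series matrix, -0.14 filter on every array) and 67350001 (0.32, catalogue probes). The cause was not tested. The planned series matrix scaled on outside probes was not run, since its features all lie in the locus. Catalogue and unsaturated probes and the series matrix as deposited were alternatives chosen after seeing the data.

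Precision is limited by the number of arrays, 1 for each mutant. polyA signals lay near the background, and saturated probes give a bound only.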
